A study of Mus musculus with 20 samples.

Results

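The genes described here belong to cholesterol synthesis and its control and were read in the aging mouse intervertebral disc. The 7 members were Hmgcs1, Fdft1, Sqle, Lss, Dhcr7, Srebf2 and Insig1, chosen by symbol among the 51789 genes of the deposited table, and all 7 passed the filter on low values that left 16383 genes tested. RNA was taken from 2 disc tissues of 24-month-old BL6 mice, the nucleus pulposus (NP), the gel-like core of the disc, and the annulus fibrosus (AF), the layered ring around it. From 18 months of age the mice had received weekly intraperitoneal injections for 6 months of either DMSO (the vehicle group) or MDL-800 in the same amount of DMSO, so that both arms carried the solvent. MDL-800 is a small molecule that activates SIRT6, a NAD-dependent deacylase of chromatin, and the series title names SIRT6 activation as its subject. Tissue and treatment together make 4 groups with 5 libraries in each, NP and AF from vehicle mice and NP and AF from MDL-800 mice, and each library is named here by its group and the number in its title. The labels call the samples primary cells, but the protocol describes tissue placed directly in a preservative after dissection. Nothing in the labels says that the libraries of a group came from separate animals, so p-values measure the spread between these libraries, which may be partly technical.

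Cells make cholesterol from acetyl-CoA by a chain of enzymes. SREBP2, the product of Srebf2, is a membrane-bound transcription factor that is carried from the endoplasmic reticulum to the Golgi by SCAP and cut there when sterols are scarce; the freed part enters the nucleus and switches on the synthesis enzymes and its own gene. INSIG1 holds SCAP back when sterols are plentiful and is itself made from an SREBP target gene, which closes a feedback loop. In mouse liver, SIRT6 has been described as a repressor of Srebf2 transcription. The disc core has no blood vessels of its own, and its cells live in a dense matrix at low oxygen.

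Of the 7 genes, 5 had a promoter entry in RefSeq (build GRCm38.p6), namely Hmgcs1, Lss, Dhcr7, Srebf2 and Insig1. Sqle and Fdft1 had none. The 250 bases before the start site are printed 5′ to 3′ for 3 of them, Hmgcs1 and Insig1 because their levels moved together from library to library, and Dhcr7 because its level differed most between the tissues. Capitals mark TCACNCCAC, the core of a sterol regulatory element to which SREBPs bind, and CCAAT, the box bound by NF-Y, a partner of SREBPs at many sterol genes, on either strand.
Hmgcs1 (chr13:119690101-119690350, plus strand): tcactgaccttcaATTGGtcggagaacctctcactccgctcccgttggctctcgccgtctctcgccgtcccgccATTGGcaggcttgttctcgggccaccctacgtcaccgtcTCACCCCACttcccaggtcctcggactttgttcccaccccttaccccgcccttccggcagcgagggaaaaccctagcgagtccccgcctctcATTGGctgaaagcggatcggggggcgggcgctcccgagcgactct
Insig1 (chr5:28071162-28071411, plus strand): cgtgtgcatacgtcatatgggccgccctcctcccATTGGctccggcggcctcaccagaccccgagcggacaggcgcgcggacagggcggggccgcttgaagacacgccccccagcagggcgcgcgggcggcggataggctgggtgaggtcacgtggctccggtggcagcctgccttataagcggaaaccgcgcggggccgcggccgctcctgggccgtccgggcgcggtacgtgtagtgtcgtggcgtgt
Dhcr7 (chr7:143822917-143823166, plus strand, its first listed start): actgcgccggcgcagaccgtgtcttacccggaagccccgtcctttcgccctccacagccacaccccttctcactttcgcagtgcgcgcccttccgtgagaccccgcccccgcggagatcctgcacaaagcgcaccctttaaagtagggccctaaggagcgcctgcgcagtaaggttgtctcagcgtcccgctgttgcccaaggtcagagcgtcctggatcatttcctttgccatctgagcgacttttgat

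TCACNCCAC was found in the Hmgcs1 window only, 137 bases before the start, against 1.05% of 32851 windows of that length in the RefSeq table. CCAAT was found in a window of each of the 5 genes, against 33.8% of all windows; Dhcr7 held it only at the third of its 3 listed starts, so the Dhcr7 window printed has no capitals. GGGCGG, the letters bound by Sp1, was also found in all 5, against 32.7% of all windows, and the 3 motifs can share only bases at their ends. Among all 36 sterol genes with an entry, counting the 4 lists described further on, TCACNCCAC was found in 1 gene, CCAAT in 27 and GGGCGG in 28. A gene with several listed starts was counted if any of its windows held the motif, whereas the percentages are of single windows. The 5 genes had 7 windows and the 36 genes had 50, so these gene counts are not directly comparable with the percentages. These matches describe letters in a window and are not measured binding.

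Levels are given as scaled FPKM, the deposited fragments per kilobase and library size (FPKM) divided by a library factor between 0.933 and 1.06, and differences as differences of mean log2(scaled FPKM + 1), which understates changes of low genes. Values rest on an estimated 12.6 to 21.8 M fragments a library, read from the steps between low values. The tissue labels were checked against markers. Of 9 tested NP markers, 8 were higher and 1 lower in NP vehicle than in AF vehicle, the lower one being Foxf1 at 0 to 0.567 scaled FPKM in NP vehicle and 4.08 to 10.5 in AF vehicle. Of 8 AF markers, 7 were lower in NP vehicle and none higher. T (brachyury, the notochord factor of the NP) was between 1193 and 2328 scaled FPKM in NP libraries and between 113 and 624 in AF libraries. In how level depended on GC content, 4 libraries fell under a cut at a slope of -0.1. The fourth, AF MDL-800 library 27 at -0.106, lay nearer to the next library above the cut (-0.0495) than to AF vehicle library 12 (-0.238). NP vehicle libraries 1 and 2, AF vehicle library 12 and AF MDL-800 library 27 had slopes between -0.285 and -0.106 log2 per 10 percentage points of GC, and the others lay between -0.0495 and 0.144. Each count below was therefore also taken without those 4 libraries, an alternative chosen after seeing the data. Sirt6 itself was at 5.03 ± 1.33 scaled FPKM in NP vehicle, 8.49 ± 0.44 in NP MDL-800, 4.73 ± 1.17 in AF vehicle and 5.55 ± 1.87 in AF MDL-800 (SD, n = 5 each). MDL-800 acts on the protein, and Sirt6 RNA did not pass the limma test in NP (adjusted p = 0.082) or in AF. Its libraries did not overlap between NP vehicle (3.00 to 6.34) and NP MDL-800 (8.14 to 9.00), which held for 4.5% of all genes. Sirt6 has a GC content of 58.4%. Its NP difference was 0.68 log2, and 0.41 with the GC trend of each library removed (adjusted p = 0.175, limma).

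The 7 genes were not scarce in either tissue. Per unit of transcript length, Dhcr7 led in NP vehicle (mean 38.3 scaled FPKM), followed by Hmgcs1 (29.7), Insig1 (25.9) and Srebf2 (24.2), whose ranges overlapped one another. Sqle (14.1), Fdft1 (12.6) and Lss (12.6) formed a lower tier in NP vehicle, and their ranges overlapped too. In AF vehicle Hmgcs1 led with 38.9, Insig1 followed with 32.4 and Srebf2 with 28.7, while Dhcr7 stood at 15.3 beside Sqle (14.5) and Fdft1 (14.3). Lss was the lowest of the 7 in AF vehicle, at 9.39. The change of rank of Dhcr7, from the first place in NP vehicle to the middle of the order in AF vehicle, is the plainest contrast in the plot of levels by library. In NP MDL-800, Srebf2 (mean 31.2) stood just above Dhcr7 (30.8).

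**Figure D1:**
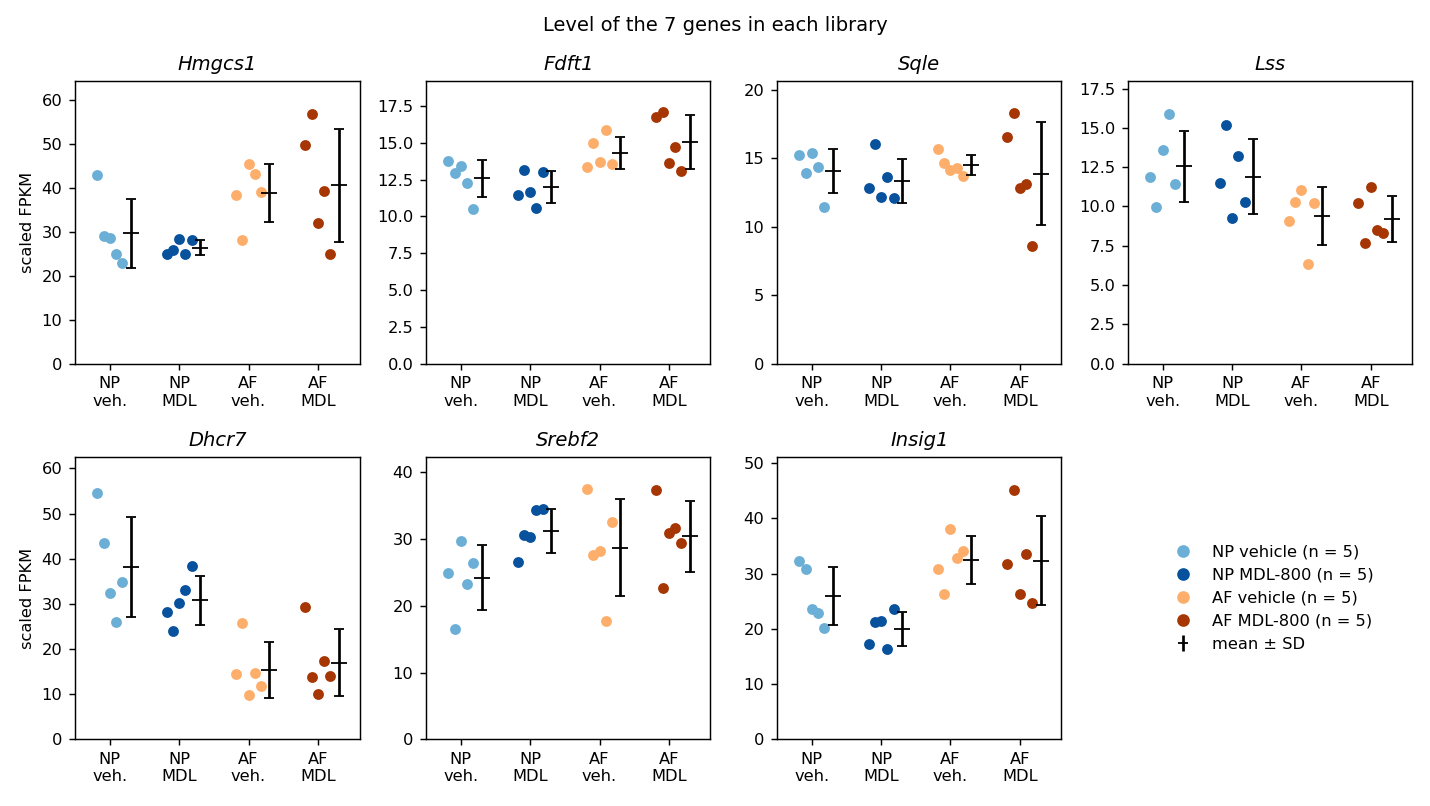
Scaled FPKM (vertical axis, linear, from 0) of the 7 genes in each of 20 libraries, grouped by tissue and treatment, with the mean and SD of each group of 5 beside its points. Dhcr7 lies between 25.9 and 54.6 in NP vehicle and between 9.81 and 25.8 in AF vehicle, Srebf2 and Insig1 shift in opposite directions between the 2 NP groups with overlap, and the AF MDL-800 points of Hmgcs1, Sqle and Insig1 spread widely.

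The first comparison asked whether MDL-800 altered these genes in the NP. None of the 7 passed the limma test there at an adjusted p under 0.05, where 0.25% of all genes tested passed. At an unadjusted p under 0.05 there were 2 of 7, Srebf2 and Insig1, against 14.1% of all genes. In no gene of the 7 were the 2 groups apart without overlap, which held for 4.5% of all genes. The median difference of the 7 was -0.08, beside -0.03 for all genes tested.

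Srebf2 (chr15:82147181-82205379, GRCm38, plus strand), which encodes the transcription factor of the pathway, was the one gene of the 7 with a higher mean in treated NP. In NP vehicle its scaled FPKM was 25.0 in library 1, 16.6 in library 2, 29.7 in library 3, 23.2 in library 5 and 26.4 in library 6. In NP MDL-800 it was 26.5 in library 15, 30.5 in library 18, 30.3 in library 19, 34.3 in library 20 and 34.5 in library 22. In 4 of the 5 treated libraries Srebf2 lay above every vehicle library, and in the fifth it lay inside the vehicle range. The means were 24.2 ± 4.86 and 31.2 ± 3.30 (SD, n = 5 each), a ratio of 1.29. The difference was 0.37 log2 (SE 0.14, 95% interval 0.06 to 0.68), with a limma adjusted p of 0.258. An exact permutation test of the difference gave a two-sided p of 0.0159, which is not adjusted for the 7 genes examined.

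Insig1 (chr5:28071363-28078662, plus strand), the gene of the sterol-sensing anchor and an SREBP target, had a lower mean in treated NP. Its scaled FPKM in NP vehicle was 32.2, 30.8, 23.5, 22.9 and 20.2 in libraries 1, 2, 3, 5 and 6. In NP MDL-800 it was 17.2, 21.3, 21.5, 16.3 and 23.6 in libraries 15, 18, 19, 20 and 22. Vehicle libraries 1 and 2 were the high ones and stood above all treated libraries, while the remaining 3 vehicle libraries mixed with the treated. The means were 25.9 ± 5.25 and 20.0 ± 3.09 (SD, n = 5 each), a difference of -0.35 log2 (SE 0.15, 95% interval -0.67 to -0.03), with a limma adjusted p of 0.312 and an exact permutation p of 0.0794.

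Dhcr7 (chr7:143823145-143848410, plus strand) encodes 7-dehydrocholesterol reductase, which makes cholesterol from its last precursor in one branch of the pathway. In NP vehicle it was at 54.6, 43.4, 32.4, 25.9 and 35.0 scaled FPKM in libraries 1, 2, 3, 5 and 6. In NP MDL-800 it was at 28.3, 24.0, 30.1, 33.05 and 38.4 in libraries 15, 18, 19, 20 and 22. Again vehicle libraries 1 and 2 were the highest, and the groups overlapped. The difference was -0.28 log2 (95% interval -0.69 to 0.14), with a limma adjusted p of 0.548.

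The remaining 4 enzymes had smaller differences in the NP. Hmgcs1, which makes HMG-CoA at the entry of the pathway, was at 29.7 ± 7.86 in vehicle and 26.5 ± 1.65 in MDL-800, a difference of -0.13 log2 with a 95% interval from -0.45 to 0.19. Its vehicle mean was carried by library 1 at 43.0, the rest of the vehicle libraries lying between 23.03 and 29.0. Fdft1, squalene synthase, differed by -0.06 log2 (95% interval -0.27 to 0.14). Sqle, the squalene epoxidase that acts next, differed by -0.07 (95% interval -0.30 to 0.16). Lss, the cyclase that closes the ring to lanosterol, differed by -0.08 (95% interval -0.40 to 0.25). All 4 intervals cover 0, and those of Fdft1 and Sqle were the narrowest of the 7 genes.

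These values rested in part on the libraries with low GC slopes. Without NP vehicle libraries 1 and 2, the difference was 0.23 for Srebf2 (adjusted p = 0.514, limma), -0.16 for Insig1 (adjusted p = 0.716) and -0.02 for Dhcr7 (adjusted p = 0.979). Hmgcs1 then turned to 0.06. None of the 7 genes passed in that fit either. The slope of level on GC content separated the 2 NP groups without overlap, from -0.285 to -0.00672 in vehicle and from 0.0228 to 0.0885 in MDL-800, so GC-related differences between libraries and treatment cannot be told apart in the NP.

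Srebf2 was the most GC-rich of the 7. The GC content of its longest transcript is 57.9%, where Hmgcs1 has 43.1%, Insig1 48.2%, Sqle 48.6%, Lss 48.7%, Fdft1 51.8% and Dhcr7 52.8%. Over the 20 libraries, the deviations of Srebf2 from its group means went with those of the GC slope (r = 0.81, n = 20 libraries that share the same scaling, given as a description). With the GC trend of each library removed, the Srebf2 difference in NP was 0.12 (adjusted p = 0.816, limma), while Insig1 stayed at -0.30 (adjusted p = 0.512) and Dhcr7 at -0.32 (adjusted p = 0.661). Across the 47 tested genes of the pathway lists, GC content and the NP treatment difference had r = 0.66, and 0.27 after the trend was removed; these are genes, not replicates. All 10 list genes with a GC content of 55% or more had a difference above 0, as did 9 of the 37 below 55%. Over all genes tested, the median difference was 0.20 at 55% or more and -0.10 under 45%.

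**Figure D2:**
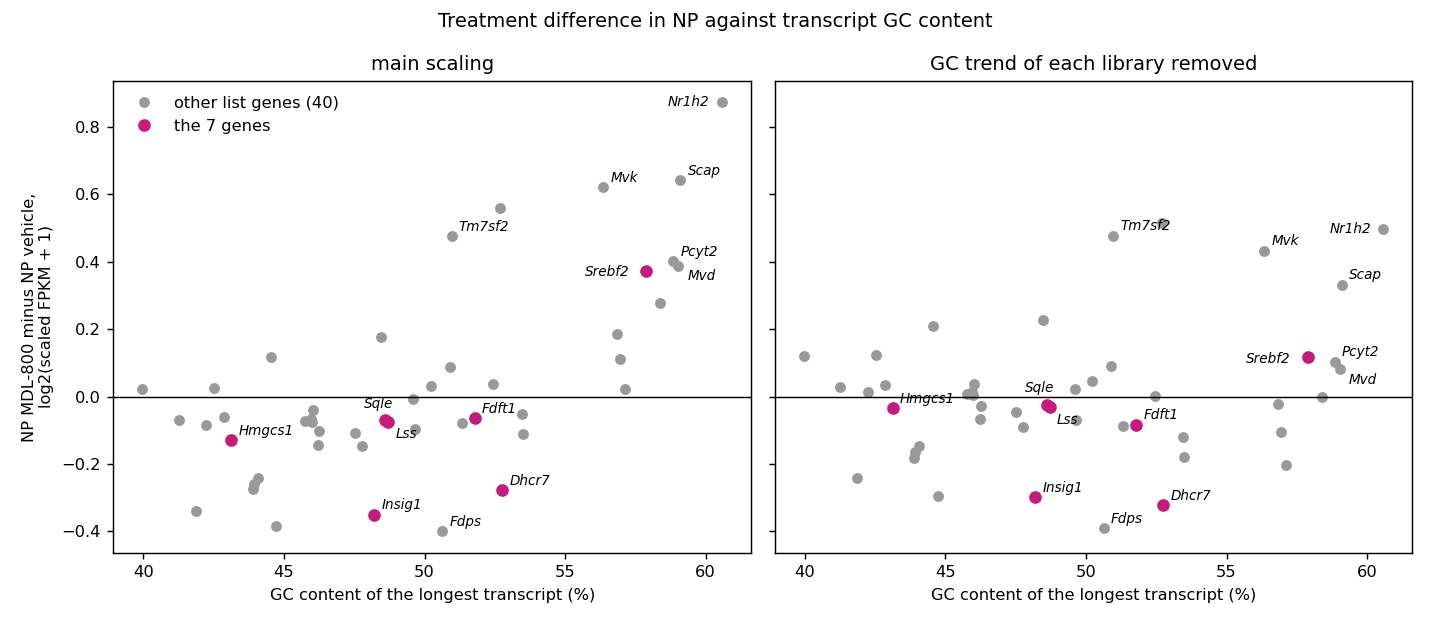
Difference between NP MDL-800 and NP vehicle (vertical axis, log2 of scaled FPKM + 1) against GC content of the longest transcript (horizontal axis, percent) for the 7 genes (magenta) and the other 40 list genes tested (grey), with the main scaling on the left and the GC trend of each library removed on the right. The left panel rises to the right (r = 0.66), with Srebf2 at 0.37; on the right r is 0.27 and Srebf2 lies at 0.12, while Insig1 and Dhcr7 stay near -0.3.

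The other genes of the pathway were read from 4 lists. None of 14 other synthesis enzymes passed in treated against vehicle NP, none of 10 genes that control SREBP processing, none of 5 other SREBP targets and none of 11 tested genes of efflux, oxysterols and storage. The lowest adjusted p of these lists was that of Scap, the SREBP escort, at 19.7 in vehicle and 30.9 in MDL-800, a difference of 0.64 log2 (limma adjusted p = 0.0743, no overlap of the libraries). Scap has a GC content of 59.1%, and its difference was 0.33 with the GC trend removed. Mvk, mevalonate kinase, was at 4.66 and 7.65 (0.62 log2, limma adjusted p = 0.13), whereas Fdps, farnesyl diphosphate synthase, was at 19.3 and 14.3 (-0.40 log2, limma adjusted p = 0.151, no overlap). Enzymes of the same chain thus had treatment differences of both signs, with 6 of 14 above 0 and 8 below.

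In the AF the same question gave no call. None of the 7 genes passed the limma test, where 0% of all genes tested did and 1.65% had an unadjusted p under 0.05. No gene of the 7 was among those, and none had groups without overlap (0.226% of all genes). The 7 differences lay between -0.10 for Sqle and 0.12 for Dhcr7. Every adjusted p was 1.

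In the AF, Hmgcs1, Sqle and Insig1 had larger SDs in the treated than in the vehicle group. Hmgcs1 (chr13:119690379-119708260, plus strand) was at 38.4, 28.2, 45.5, 43.1 and 39.2 scaled FPKM in AF vehicle libraries 8, 9, 10, 12 and 13. In AF MDL-800 it was at 49.7, 56.8, 32.2, 39.4 and 25.0 in libraries 25, 27, 28, 29 and 30. The treated values thus reached both above and below the vehicle range, with a mean of 40.6 ± 12.9 beside 38.9 ± 6.65 in vehicle (SD, n = 5 each). Their difference was 0.02 log2 (95% interval -0.46 to 0.51).

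Sqle (chr15:59315077-59331192, plus strand) spread in the same libraries. It was at 15.7, 14.7, 14.1, 14.3 and 13.7 in the AF vehicle libraries in the order above, the tightest group of the 7 genes in AF. In AF MDL-800 it was at 16.6, 18.3, 12.8, 13.1 and 8.60. Library 27 was again the highest and library 30 the lowest, and the SD was 3.75 in MDL-800 beside 0.75 in vehicle. The difference of the means was -0.10 log2 (95% interval -0.48 to 0.28). Insig1 followed, at 30.8, 26.4, 38.1, 32.8 and 34.2 in AF vehicle and at 31.8, 45.1, 26.3, 33.6 and 24.6 in AF MDL-800. Library 27 is one of the 4 with a low GC slope, and library 30 had the highest sums of neutrophil markers (30673 scaled FPKM, 5646 to 15884 in the other AF MDL-800 libraries) and of red blood cell markers (2398, 437 to 1487 in the others). The part of either in the spread was not tested.

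Fdft1 (chr14:63145150-63179578, minus strand), Lss (chr10:76531588-76557138, plus strand) and Srebf2 did not pass in AF either, and the SDs of Lss and Srebf2 were larger in vehicle than in MDL-800. Fdft1 was at 14.3 ± 1.09 in vehicle and 15.1 ± 1.81 in MDL-800, a difference of 0.06 log2 (95% interval -0.17 to 0.30). Lss was at 9.39 ± 1.85 and 9.19 ± 1.46, a difference of -0.02 (95% interval -0.37 to 0.33). Srebf2 was at 28.7 ± 7.30 and 30.4 ± 5.26, a difference of 0.10 (95% interval -0.33 to 0.53), its lowest AF libraries being the 2 with low GC slopes, vehicle library 12 at 17.7 and MDL-800 library 27 at 22.6.

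Whether the response to MDL-800 differed between the tissues was tested as an interaction in a fit of all 4 groups. No gene of the 7 passed, and 0% of all genes did; 3.73% of all genes and none of the 7 had an unadjusted p under 0.05. The difference of the 2 responses (NP minus AF) was -0.32 log2 for Insig1 (95% interval -0.79 to 0.15, exact permutation p = 0.205), -0.40 for Dhcr7 (95% interval -1.17 to 0.37) and 0.27 for Srebf2 (95% interval -0.25 to 0.79). These intervals are wide enough to hold a tissue difference as large as the NP response itself, and equally none. Without the 4 libraries with low GC slopes the Insig1 value was -0.01.

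Between the tissues many more genes of the whole table were called. In vehicle animals 1 of the 7 genes passed the limma test between NP and AF, Dhcr7, against 55.7% of all genes tested. It was called higher in NP, as were 21.8% of all genes, and none of the 7 was called lower, where 33.9% of all genes were. The same gene was the only one of the 7 whose libraries did not overlap between the tissues, which held for 41% of all genes. The median difference of the 7 was -0.18 log2, beside -0.08 for all genes tested. Of all calls, 3577 were higher and 5550 lower in NP (39.2% higher), and this split depended on the scaling, with 62.3% higher after quantile normalization, which moved the median of all genes by 0.29 log2.

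Dhcr7 was 2.49-fold higher in NP. Its scaled FPKM in the 5 NP vehicle libraries was between 25.9 and 54.6, as listed above, and in AF vehicle it was 14.5, 25.8, 9.81, 14.8 and 11.7 in libraries 8, 9, 10, 12 and 13. The highest AF library, 9, came to just under the lowest NP library. The difference was 1.29 log2 (SE 0.25, 95% interval 0.73 to 1.85), with a limma adjusted p of 0.00138, and the exact permutation p of 0.0079 is the smallest that 5 against 5 libraries allow. AF library 9 also had the highest NP marker sum of the AF vehicle group (15174 scaled FPKM, 2517 to 7162 in the others). Leaving out 1 library at a time gave differences between 1.15 and 1.49, and leaving out the 3 vehicle libraries with low GC slopes gave 1.04 (adjusted p = 0.0234, limma).

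Under MDL-800, Dhcr7 was again higher in NP, 1.82-fold (0.89 log2, SE 0.24, limma adjusted p = 0.00709). In AF MDL-800 it was at 29.4, 13.9, 10.0, 17.3 and 14.1 scaled FPKM in libraries 25, 27, 28, 29 and 30. Library 25 lay inside the NP range, so the groups overlapped, and the other 4 AF libraries lay below all NP libraries.

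Lss was the other gene of the 7 with a higher mean in NP vehicle than in AF vehicle. In NP vehicle it was at 11.9, 9.98, 13.6, 15.9 and 11.5 scaled FPKM, and in AF vehicle at 9.05, 10.3, 11.1, 6.35 and 10.2. In 4 of 5 NP libraries Lss lay above all AF libraries. The difference of 0.39 log2 (SE 0.16, 95% interval 0.03 to 0.74) missed the threshold with a limma adjusted p of 0.0606, and it passed in 6 of the 17 alternative fits, among them the fit with the GC trend removed (0.51, adjusted p = 0.0203). Under MDL-800 the difference was 0.33 (limma adjusted p = 0.0658), and it passed in 3 of the 17 alternative fits, again with the GC trend removed (0.49, adjusted p = 0.012, limma).

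Hmgcs1 and Insig1 had lower means in NP. Hmgcs1 stood at 29.7 ± 7.86 in NP vehicle and 38.9 ± 6.65 in AF vehicle, a difference of -0.39 log2 (95% interval -0.78 to -0.0032, limma adjusted p = 0.0807). NP library 1 at 43.0 and AF library 9 at 28.2 lay on the other tissue's side. Insig1 stood at 25.9 ± 5.25 and 32.4 ± 4.33, a difference of -0.33 log2 (95% interval -0.65 to -0.0036, limma adjusted p = 0.0799). Without the libraries with low GC slopes both passed, Hmgcs1 at -0.54 (adjusted p = 0.032, limma) and Insig1 at -0.51 (adjusted p = 0.0187), and the count of the 7 genes called rose from 1 to 4 with Lss among them.

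Under MDL-800, 4 of the 7 genes passed between the tissues, against 62.8% of all genes. Dhcr7 was higher in NP (25.6% of all genes), and Hmgcs1, Fdft1 and Insig1 were lower (37.2% of all genes). Insig1 was at 16.3 to 23.6 in NP and 24.6 to 45.1 in AF, the only gene of the 7 without overlap here (49.1% of all genes), with a difference of -0.65 log2 (SE 0.16, limma adjusted p = 0.0055, exact permutation p = 0.0079). Hmgcs1 was at 24.9 to 28.4 in NP and 25.0 to 56.8 in AF (-0.54 log2, SE 0.19, limma adjusted p = 0.0287). Fdft1 was at 10.6 to 13.1 in NP and 13.1 to 17.1 in AF (-0.30 log2, SE 0.10, limma adjusted p = 0.0213). Of 17 alternative fits, the Hmgcs1 call was lost in 9 and its sign turned in 1, the Fdft1 call was lost in 7 and its sign turned in 1, the Insig1 call was lost in 5 and the Dhcr7 call in 3. Among these were quantile normalization, with Hmgcs1 at -0.40 (adjusted p = 0.119, limma) and Fdft1 at -0.06 (adjusted p = 0.627), and the fit with the GC trend removed, with Hmgcs1 at -0.40 (adjusted p = 0.0823) and Fdft1 at -0.16 (adjusted p = 0.198). A replicate block by a number in the column names, whose meaning is not given and which pairs only 3 NP with 3 AF libraries here, left Dhcr7 as the 1 gene called. The Hmgcs1 call was also lost in 6 of 10 fits that left out 1 library, and without NP MDL-800 library 20 the count of the 7 genes called was 2.

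Sqle and Srebf2 did not separate the tissues under either treatment. Sqle differed by -0.05 log2 in vehicle (95% interval -0.26 to 0.17) and -0.02 under MDL-800 (95% interval -0.40 to 0.37). Srebf2 differed by -0.22 (95% interval -0.67 to 0.22) and 0.05 (95% interval -0.23 to 0.33).

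Many enzymes outside the 7 genes were lower in NP. Of 14 other synthesis enzymes, 10 were lower in NP vehicle and none higher, where 33.9% of all genes were called lower and 21.8% higher. Their median was -0.56 log2 beside -0.08 for all genes. After quantile normalization 6 were lower and 2 higher. Over 17 alternative fits the number called in either direction lay between 0 and 10. It was 0 with the fat or red blood cell markers as a covariate, when none of all genes passed. Mvd, the mevalonate pyrophosphate decarboxylase, was at 0.941 in NP vehicle and 3.39 in AF vehicle (-1.16 log2, limma adjusted p = 0.00053). Fdps was at 19.3 and 34.8 (-0.83, limma adjusted p = 0.000103). Idi1, the isomerase before Fdps, was at 11.2 and 19.7 (-0.81), Msmo1, a sterol methyl oxidase, at 16.4 and 28.0 (-0.78), and Ebp, a sterol isomerase, at 14.0 and 22.6 (-0.63). Under MDL-800 the count was 9 lower and none higher of 14, where 37.2% of all genes were called lower and 25.6% higher, with a median of -0.61 and with 8 lower and 2 higher after quantile normalization. Fdps was then at 14.3 and 35.7 (-1.25 log2), Idi1 at 8.31 and 19.8 (-1.15) and Msmo1 at 11.9 and 27.8 (-1.14). The treatments share no libraries, and Dhcr7 was the only enzyme of the chain called higher in NP in either of them with this scaling.

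**Figure D3:**
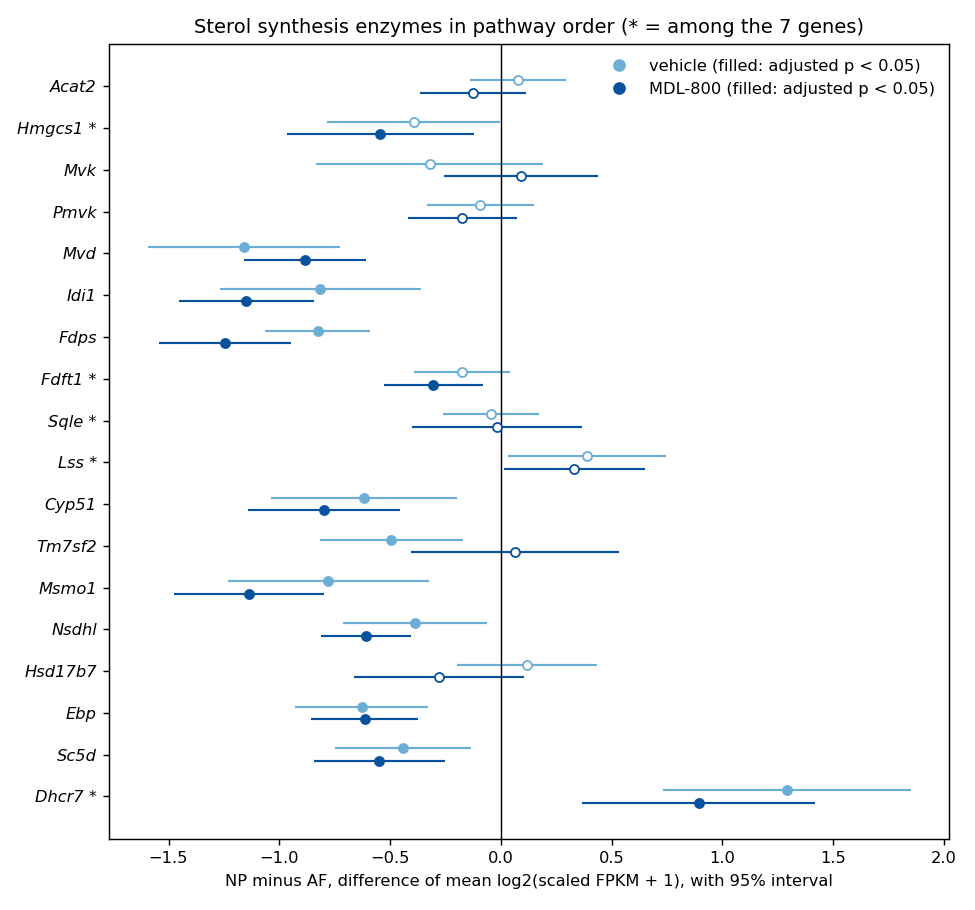
NP minus AF difference (horizontal axis, log2 of scaled FPKM + 1, with 95% intervals) of 5 of the 7 genes (asterisks) and 13 other enzymes in the order of the pathway from top to bottom, in vehicle (light) and MDL-800 (dark), filled where the limma adjusted p was under 0.05. Most filled points lie to the left, down to -1.16 for Mvd in vehicle, and Dhcr7 alone has filled points on the right, at 1.29 and 0.89.

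Genes that govern SREBP processing were mixed. Of 10 such genes, 4 were higher and 2 lower in NP vehicle, and 6 higher and 2 lower under MDL-800. Of all genes, 21.8% were called higher and 33.9% lower in vehicle, and 25.6% and 37.2% under MDL-800. Srebf1, the SREBP gene tied mainly to fatty acid synthesis, was at 136 in NP vehicle and 60.0 in AF vehicle (1.14 log2, limma adjusted p = 0.000621), which set it apart from Srebf2. Rnf145, a ubiquitin ligase of SCAP, was at 73.6 and 35.2 (1.01 log2), and Erlin1, an endoplasmic reticulum protein that restrains SREBP activation, was at 5.59 and 9.53 (-0.66). Scap was higher in NP under MDL-800, at 30.9 beside 15.4 (0.98 log2, limma adjusted p = 0.000165).

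Of 5 other SREBP targets, 3 were lower and none higher in NP under either treatment, where 33.9% of all genes were called lower in vehicle and 37.2% under MDL-800; after quantile normalization the vehicle count was 2 lower and 1 higher. Tmem97, the sigma-2 receptor, was at 8.67 in NP vehicle and 16.7 in AF vehicle (-0.86 log2), Stard4, a sterol carrier, at 4.53 and 8.32 (-0.76), and Acss2, an acetyl-CoA synthetase, at 5.29 and 8.59 (-0.61). Of 11 tested genes of efflux, oxysterols and storage, 4 were higher and 5 lower in NP under each treatment, beside 21.8% higher and 33.9% lower of all genes in vehicle and 25.6% and 37.2% under MDL-800. Cyp27a1, a sterol hydroxylase, was at 41.1 and 19.4 in vehicle (1.08 log2), whereas Lipa, the lysosomal acid lipase, was at 7.22 and 20.6 (-1.36) and Npc2, which carries cholesterol out of lysosomes, at 32.0 and 57.5 (-0.83).

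Markers of other cell types moved with the tissue. In vehicle, 5 of 6 fat, 7 of 8 Schwann cell and axon, 6 of 6 skeletal muscle, 5 of 5 red blood cell, 6 of 6 macrophage, 5 of 5 neutrophil, 6 of 6 bone and 5 of 5 endothelial markers were lower in NP, and none was higher. All 5 markers of dividing cells were lower in NP vehicle too. The fat markers summed to between 18.4 and 28.7 scaled FPKM in NP vehicle and between 118 and 222 in AF vehicle, Adipoq among them at 0.178 to 2.60 and 32.99 to 53.7. Schwann cell markers summed to between 100.5 and 131 in NP vehicle and between 184 and 1539 in AF vehicle. Over the 17 alternative fits in vehicle, the tissue difference lay between 0.35 and 2.01 for Dhcr7. For Hmgcs1 it lay between -0.98 and 0.13, and for Insig1 between -0.99 and 0.07. With the Schwann cell markers as a covariate, Dhcr7 differed by 0.35 in vehicle (adjusted p = 0.551, limma), Hmgcs1 by 0.13 and Insig1 by 0.07. In that fit 948 of 16383 genes were called higher and 2793 lower. With the fat markers Dhcr7 differed by 0.61 (adjusted p = 0.967, limma) when none of all genes tested passed. These covariates separate the tissues themselves, so cell makeup and tissue cannot be told apart here, and in bulk tissue fewer cells of a type and less RNA per cell cannot be told apart either. No marker of any list was called between treatments in NP or in AF. The libraries of the 2 NP groups did not overlap for 3 of 10 NP markers with values, beside 4.5% of all genes tested. The other NP markers overlapped between these groups. The 3 without overlap all had higher values in MDL-800. T was at 1193 to 1701 in vehicle and 1780 to 2328 in MDL-800. In the same order, the keratin gene Krt19 was at 640 to 1442 and 1689 to 2355. Krt8 was at 750 to 883 and 926 to 1243. Their part in the NP treatment differences of the 7 genes was not tested.

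Within groups, part of the 7 genes moved together from library to library. Deviations of log2 level from the group mean had r = 0.84 between Hmgcs1 and Insig1 over 20 libraries, 0.77 over the 10 NP libraries and 0.90 over the 10 AF libraries. Sqle and Fdft1, neighbours in the chain, had r = 0.70, Hmgcs1 and Sqle 0.69, Fdft1 and Insig1 0.66, and Hmgcs1 and Fdft1 0.65. Srebf2 had r = -0.12 with its target Hmgcs1, and Lss had r = -0.23 with Hmgcs1. Dhcr7 had r = 0.73 with Hmgcs1 over the NP libraries and 0.00 over the AF libraries. The points share library, scaling and GC slope. Hmgcs1 and Insig1 each had r near -0.5 with the slope (-0.54 and -0.56). Srebf2 (r = 0.81) and Lss (r = 0.56) went with the slope in the opposite direction. The part of the slope in the r values between genes was not tested, so these values are descriptions.

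**Figure D4:**
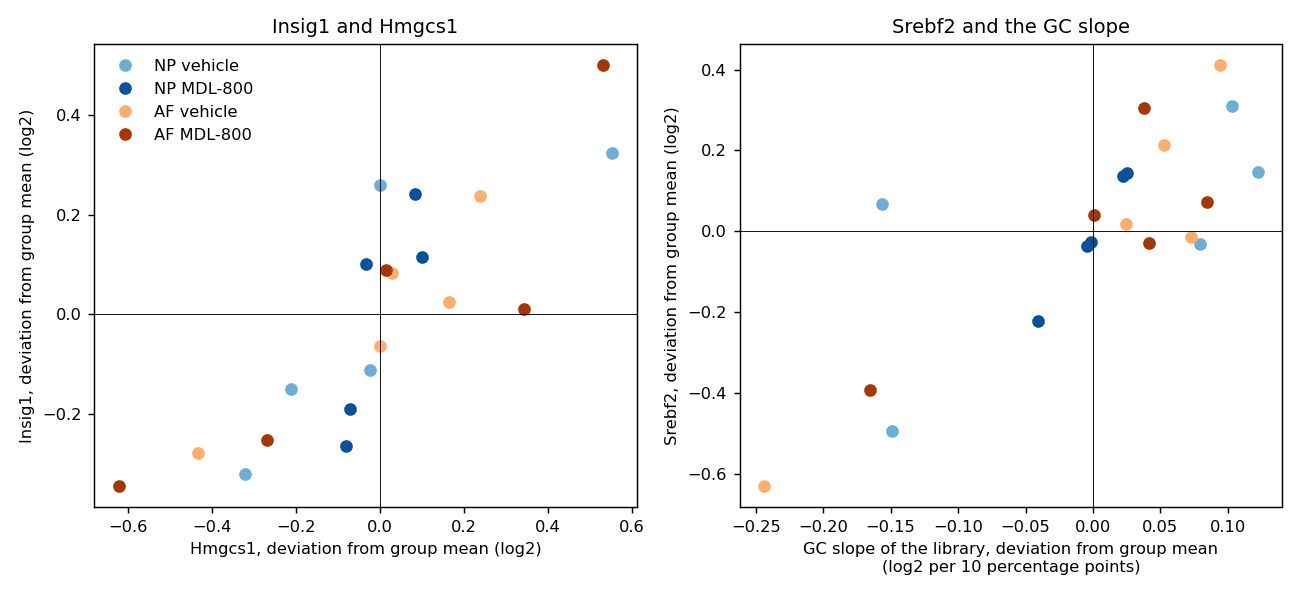
Deviations from the group mean, in log2, of Insig1 against Hmgcs1 (left) and of Srebf2 against the GC slope of the library (right), one point for each of 20 libraries, coloured by group. The left cloud rises through all 4 groups (r = 0.84). The right cloud rises (r = 0.81) with NP vehicle library 2, AF vehicle library 12 and AF MDL-800 library 27 at the lower left. NP vehicle library 1, also with a low slope, lies slightly above its group mean.

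The genes most like the 7 in this respect were found by ranking all 16376 other genes tested on the correlation of their deviations with the mean deviation of the 7. Ranks 2 to 5 were held by Gm29157, a lincRNA, with r = 0.85 over 20 libraries (0.76 in NP and 0.90 in AF), Chst3 with 0.80, Sash1 with 0.79 and Ehd2 with 0.79. Genes of the pathway lists near the top included Hsd17b7, at rank 14, Fdps at 17 and Msmo1 at 19. Other genes of these lists were spread over the whole ranking. Among the synthesis enzymes, Mvk had r = 0.10, Pmvk -0.06 and Ebp -0.44 (rank 15682). Abcg1, of the efflux list, had r = -0.48 (rank 15960). Fdps had r = 0.89 over the 10 NP libraries and 0.67 over the 10 AF libraries, and Msmo1 had 0.94 and 0.63.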

How the data were processed

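RNA from dissected tissue was made into stranded, ribosomal-RNA-depleted libraries from 50 ng of RNA with 14 PCR cycles, per the labels' protocols. Alignment used STAR 2.7.11b and build mm10, per the submitters' processing notes; the counting tool is not given in the sources used here. The authors deposited FPKM values for 51789 genes in 20 libraries, 5 a group. Each library was divided by a median-ratio factor from 11308 genes with at least 1 FPKM in all libraries, and log2(scaled FPKM + 1) was analysed for 16383 genes with at least 1 FPKM in 5 or more libraries. Comparisons used limma 3.58.1 (R 4.3.3) with an intensity trend on the 2 groups compared, Benjamini-Hochberg adjustment over all genes tested and a threshold of 0.05, and two-sided exact permutation tests for single genes; the code was tested on simulated data. The interaction used all 4 groups. Pathway genes named are those with the smallest p in each list. Coordinates and GC content come from GENCODE M21 (GRCm38). The members and lists were chosen with earlier results of these data known; the libraries left out for their GC slope were chosen after values were seen. Some genes that the naming rules pick are not reported here. Alternatives were other scalings, pseudocounts, filters, models, marker covariates and left-out libraries. The column names carry a second number shared by some NP and AF libraries, whose meaning is not given. It was not used as a pairing in the main fits, and a replicate block by it is given as an alternative. Libraries sharing it had deviations correlated between -0.18 and 0.29. These correlations are between different tissues and cannot tell whether such libraries came from the same animal. FPKM hold no depth, so no counting interval is given.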

Additional observations from a re-analysis of the deposited data

How the results depend on the processing

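The replicate numbers in the titles are shared by no 2 groups, so no pairing was taken from them. A replicate block by the second number of the column names (chosen after seeing the data; 5 shared numbers in vehicle and 3 under MDL-800) gave 1 called gene of the 7 between tissues under MDL-800 in place of 4, and 1 in vehicle as before. The 7 genes gave no call between treatments, and none in the interaction, in any alternative or with any library left out. Between tissues in vehicle the count of 1 became 3 on unscaled FPKM, 2 after quantile normalization, 2 with equal FPKM sums, 2 with all 4 groups in the fit, 4 with library weights, 2 with the GC trend removed, 4 without the libraries with low GC slopes and 0 with the fat, Schwann cell, red blood cell or muscle markers as a covariate. Leaving out 1 library gave 1 to 3 (3 without library 1 of NP or library 9 of AF, 2 without library 2 of NP or library 10 of AF). Under MDL-800 the count of 4 became 0 with the fat, red blood cell or muscle markers and 1 with the Schwann cell markers, and 2 to 5 with 1 library left out. Direction turned as follows; the cause was not tested. For treatment in NP, Hmgcs1 turned to 0.055 without the libraries with low GC slopes. For treatment in AF, Insig1 turned to 0.057, 0.011 and 0.016 with Schwann cell, red blood cell and muscle markers, and Hmgcs1 to -0.071 without the libraries with low GC slopes. Between tissues in vehicle, Schwann cell markers turned Insig1 to 0.071 and Hmgcs1 to 0.13; quantile normalization turned Fdft1 to 0.072 and Sqle to 0.20; Sqle was 0.081 with equal FPKM sums and 0.070 with the GC trend removed; Srebf2 was 0.025 with fat and 1.05 with red blood cell markers. Mbtps1 (-0.15 with fat) and Pcyt2 (0.065 with fat, 0.54 with red blood cell markers) turned too. Under MDL-800, Schwann cell markers turned Fdft1 to 0.0011 and Hmgcs1 to 0.032. Srebf2 was -0.032 unscaled, -0.011 with weights, -0.14 with fat markers, -0.19 with muscle markers and -0.048 without AF MDL-800 library 27. Sqle was 0.23 after quantile normalization, 0.12 with equal sums, 0.14 with the GC trend removed, 0.14, 0.40 and 0.22 with fat, Schwann cell and muscle markers, and 0.086 without AF MDL-800 library 27. In the interaction Sqle was -0.0082 with red blood cell markers and Hmgcs1 0.13 without the libraries with low GC slopes. Leaving out 1 library moved Hmgcs1 between -0.21 and 0.0087 and Lss between -0.16 and 0.0068 for treatment in NP. For treatment in AF it moved Sqle between -0.20 and 0.049, Srebf2 between -0.056 and 0.20, Dhcr7 between -0.090 and 0.32, Insig1 between -0.15 and 0.058, Lss between -0.14 and 0.040 and Hmgcs1 between -0.11 and 0.18. Between tissues Sqle moved between -0.079 and 0.021 in vehicle and between -0.17 and 0.086 under MDL-800, and Srebf2 between -0.048 and 0.13 under MDL-800. In the interaction Lss moved between -0.14 and 0.063 and Sqle between -0.12 and 0.13. The count of all genes called between treatments in NP, 41, was between 2 and 189 with 1 library left out and between 4 and 81 under the other alternatives.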
